A study of Rattus norvegicus with 12 samples.

Results

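Chemokines are small secreted proteins that draw leukocytes along a gradient, and chemokine receptors are the G protein-coupled receptors that read it. The genes described here are every rat gene whose symbol is Ccl, Cxcl, Cx3cl, Xcl, Ccr, Cxcr, Cx3cr, Xcr or Ackr followed by a number and for which the array holds a probe. There were 53 such genes of 15159 named genes, 33 of them ligands and 20 receptors. A further 4 genes of the family (Ackr1, Ackr4, Ccr8 and Cxcl3) were not matched to a probe and were not analysed here. RNA was measured on 12 single-colour Agilent arrays, each hybridised with the pooled RNA of 3 female rats aged 8 weeks. The rats were Sprague-Dawley (called wild-type below), taken 12 days after the injection, or athymic nude rats (Hsd:RH-Foxn1rnu), taken 7 days after it. All of them received 50 μg of the myelin basic protein peptide MBP84-104 in 5 μL into the left sciatic nerve. In each rat type the left sciatic nerve was compared with the right one, which the labels name as the PBS site, the left dorsal root ganglia (DRG) with the right DRG, and the left dorsal part of the lumbar cord with that of the cord above it.

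Ligands are named by the spacing of their first cysteines (CC, CXC, CX3C and XC), and most bind several receptors. Inflammatory ligands such as Ccl2 and Cxcl10 are induced by cytokines in macrophages, endothelium and glia, while homeostatic ligands such as Cxcl12 and Ccl21 are made constitutively and place lymphocytes and stem cells. In injured nerve, Schwann cells and resident macrophages are known sources of Ccl2, which recruits blood monocytes through its receptor Ccr2. Atypical receptors (the Ackr genes) bind ligands without G protein signalling and remove them.

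A level is given below as the log2 of the background-subtracted spot signal minus the median of that array, so that 0 is the signal of the median probe. A ratio is the difference of 2 such levels, and a member is called higher or lower at a 2-fold difference (1 on the log2 scale). A probe that the scanner software did not find well above background was raised to the lowest signal that was (the floor). Where it already lay above the floor, it kept its own level. In either case the ratio was treated as a bound, and is written as "at least" or named a bound. Each condition was measured on 1 array, so no difference within a rat type has a replicate check and no test was run. Each main count is set beside the share of all genes past the same threshold. In these pooled tissue extracts more cells of a type and more RNA per cell cannot be told apart, and rat type cannot be told apart from strain and day. The median signal ran from 15.4 on the injected nude nerve array to 74.9, between 59.5% and 76.9% of spots were well above background, and no spot was saturated. The 6 nude arrays and both wild-type nerve arrays lay on 1 slide and the other 4 on another, with each pair that was compared on the same slide. Markers set the tissues apart. The summed signal of 7 sensory neuron genes, in multiples of the array median, was between 714 and 810 in DRG and at most 29.2 elsewhere, and that of 8 spinal cord genes was between 297 and 375 in cord and at most 10.1 elsewhere. The probe of Foxn1, the gene mutated in nude rats, passed the background flag on 9 of 12 arrays, nude ones among them, and gave no check of the rat type.

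Promoters of 42 members were found in RefSeq's GRCr8 table and were searched for 2 motifs that regulate many inflammatory ligands. These were the NF-κB consensus and the interferon element GAAANNGAA, on both strands, from 250 bases before the start of the gene to 50 after it. Members without a promoter in that table, and so not searched, included Ccl2, Ccl3, Ccl4, Ccl5 and Ccl11. The NF-κB consensus lay in 8 of the 42 (19.0%) and in 4.18% of all 33469 promoters. Its holders were Ccl9, Ccl20, Ccr3, Cxcl1, Cxcl2, Cxcl6, Cxcl10 and Cxcl11, of which Cxcl1, Cxcl2 and Cxcl6 lie side by side, as do Cxcl10 and Cxcl11. The interferon element lay in 3 (Ccl19, Ccr2 and Cxcl10; 7.14%) and in 9.71% of all promoters. The 250 bases before the start are printed for Ccl20 and Cxcl10, which had the highest wild-type nerve ratios, for Cxcl1, which had the lowest nude nerve ratio, and for their neighbours Cxcl9 and Cxcl2. They lie on GRCr8 at chr9:91836909-91837158 for Ccl20, at chr14:15988816-15989065 for Cxcl10 and at chr14:16006916-16007165 for Cxcl9, all on the plus strand, and at chr14:17479322-17479571 for Cxcl1 and chr14:17467256-17467505 for Cxcl2, both on the minus strand. Capitals mark the motifs, which are descriptions of the letters and not measured sites.
Ccl20: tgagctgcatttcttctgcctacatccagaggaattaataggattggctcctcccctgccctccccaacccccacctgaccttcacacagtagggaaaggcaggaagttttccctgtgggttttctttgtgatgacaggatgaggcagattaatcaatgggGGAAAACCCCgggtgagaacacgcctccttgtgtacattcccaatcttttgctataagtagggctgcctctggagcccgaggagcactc
Cxcl10: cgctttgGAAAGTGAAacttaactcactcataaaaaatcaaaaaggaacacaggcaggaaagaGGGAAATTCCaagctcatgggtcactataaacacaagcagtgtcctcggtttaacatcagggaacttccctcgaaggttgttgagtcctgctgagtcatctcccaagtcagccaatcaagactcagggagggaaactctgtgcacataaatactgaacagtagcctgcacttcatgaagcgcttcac
Cxcl9: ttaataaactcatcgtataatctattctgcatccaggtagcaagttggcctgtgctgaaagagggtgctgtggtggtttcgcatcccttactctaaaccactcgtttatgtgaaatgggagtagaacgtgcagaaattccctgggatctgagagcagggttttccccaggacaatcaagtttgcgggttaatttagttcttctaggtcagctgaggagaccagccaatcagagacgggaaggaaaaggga
Cxcl1: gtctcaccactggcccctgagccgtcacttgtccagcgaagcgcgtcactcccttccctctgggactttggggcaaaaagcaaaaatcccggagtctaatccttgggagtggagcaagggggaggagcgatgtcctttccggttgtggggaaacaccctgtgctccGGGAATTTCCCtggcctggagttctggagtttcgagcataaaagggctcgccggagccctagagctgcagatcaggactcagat
Cxcl2: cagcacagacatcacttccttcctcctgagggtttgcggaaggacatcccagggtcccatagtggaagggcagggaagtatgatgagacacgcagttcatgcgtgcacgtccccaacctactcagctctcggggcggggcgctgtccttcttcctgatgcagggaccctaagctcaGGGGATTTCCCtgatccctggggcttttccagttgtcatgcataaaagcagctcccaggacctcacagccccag
The capitals in Cxcl10 are an interferon element, which comes first, and an NF-κB consensus. Ccl20, Cxcl1 and Cxcl2 hold the NF-κB consensus only, and overlapping matches are joined. In Cxcl9 neither motif was found with these letters.

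Of the 53 members, 18 were well above background on all 12 arrays, 24 on 1 to 11 and 11 on none. The last were Ccl25, Ccl26, Ccl28, Ccr4, Cxcl6, Cxcl11, Cxcr1, Cxcr3, Cxcr5, Cxcr6 and Xcr1. The 18 included the ligands Ccl2, Ccl5, Ccl6, Ccl7, Ccl9, Ccl19, Ccl24, Ccl27, Cx3cl1, Cxcl10, Cxcl12, Cxcl16 and Xcl1 and the receptors Ackr3, Ccr9, Cx3cr1 and Cxcr4. The nerve arrays showed between 33 and 36 members, the DRG arrays between 24 and 35 and the cord arrays between 23 and 27. Several receptors of lymphocytes were below background throughout while their ligands were not. Cxcr3, which reads Cxcl9 and Cxcl10, was dark on every array, as were Ccr4, which reads Ccl17 and Ccl22, Cxcr5, which reads Cxcl13, and Cxcr6, which reads Cxcl16.

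**Figure D1:**
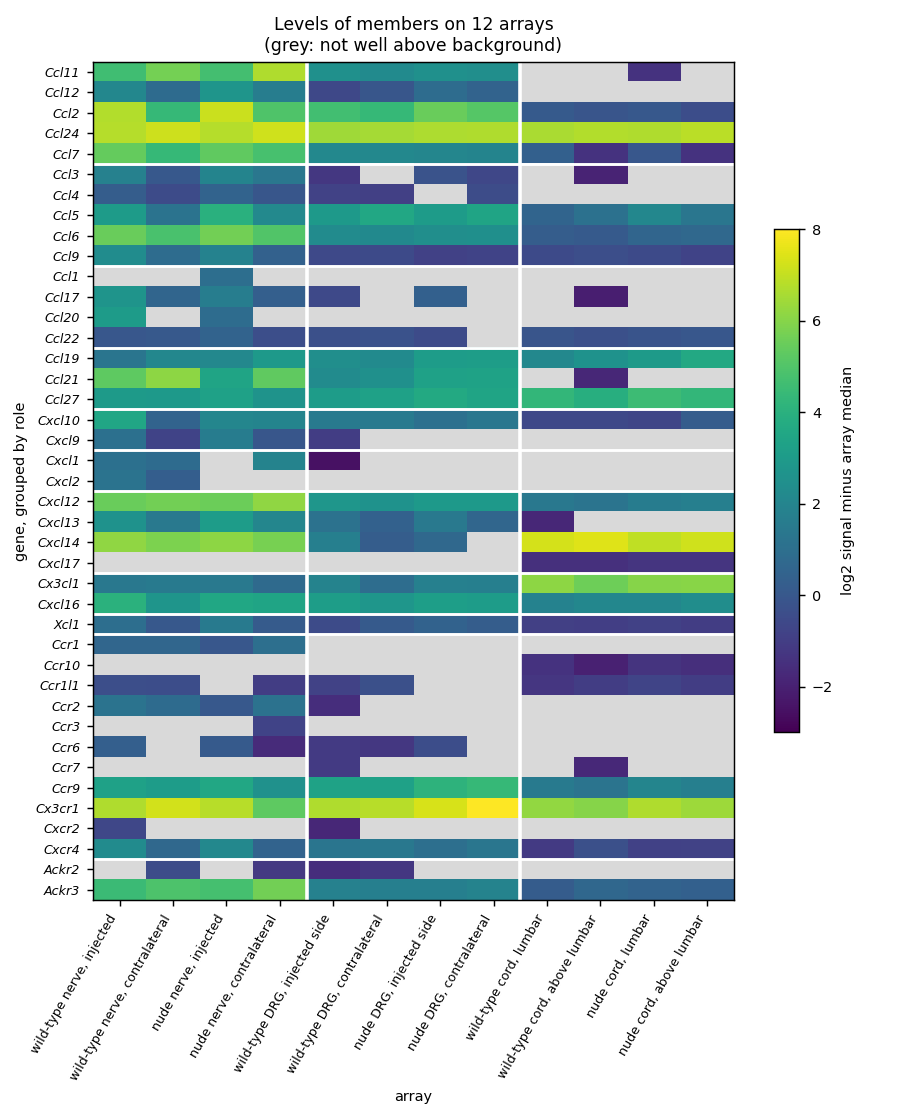
Levels of members that were well above background on at least 1 array (rows, grouped by role) on the 12 arrays (columns), as log2 signal minus the array median. Grey cells were not well above background. The 4 nerve columns at the left hold fewer grey cells than the 4 cord columns at the right.

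The sciatic nerve held nearly all of the large differences. In wild-type rats 15 of 37 measured members (40.5%) were at least 2-fold higher in the injected nerve, where 4.68% of 10213 genes were, and 1 (2.70%) was at least 2-fold lower, where 4.08% of genes were. Their median ratio was 0.71, and that of all genes −0.05. In nude rats 14 of 34 (41.2%) were higher, where 7.52% of 9456 genes were, and 5 (14.7%) were lower, where 13.5% of genes were, so that the share of lower members was close to the background. The median member ratio was 0.62 and that of all genes −0.38. With each ratio taken relative to that median, the nude nerve had 18 members higher and 3 lower, and the share of all genes was not counted on that scale. A member that enters through its bright array alone had to differ, so the counts were also made over genes well above background on both arrays. There the wild-type nerve had 13 of 33 members higher (39.4%; 3.65% of all genes) and 1 lower (3.50% of all genes), and the nude nerve 12 of 31 higher (38.7%; 7.77% of all genes) and 4 lower (12.8% of all genes). Normexp background correction adds an offset of 50, which shrinks the ratios of dim probes, and was followed by quantile normalization. With this setting, called normexp below, 8 members were higher in wild-type and 7 in nude nerve. All-gene shares were not counted under that setting. Of 33 members measured in both rat types, the 10 called higher in both were Ccl2, Ccl5, Ccl9, Ccl12, Ccl17, Ccl20, Ccr6, Cxcl9, Cxcl13 and Cxcr4. The share of all genes called higher in both was not counted.

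**Figure D2:**
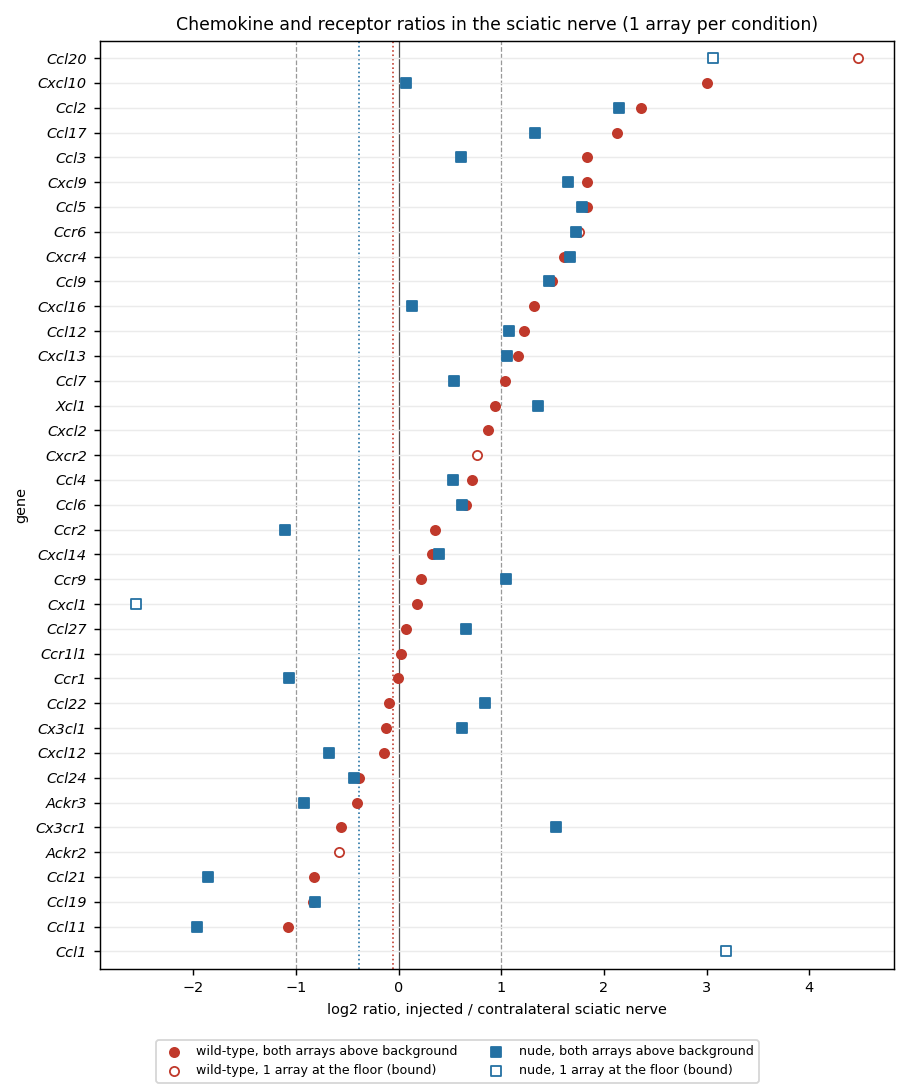
Log2 ratio of the injected over the contralateral sciatic nerve (horizontal axis) for members measured in at least 1 rat type, ordered by the wild-type ratio, with Ccl1, measured in nude rats alone, at the bottom. Circles are wild-type and squares nude rats, open symbols are bounds, dashed lines mark 2-fold and dotted lines the median of all genes. Ccl2, Ccl5, Ccl9 and Cxcr4 have nearly the same ratio in both rat types, while Cxcl10, Cxcl1 and Cx3cr1 lie far apart.

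Of the monocyte-recruiting CC ligands that bind Ccr2, Ccl2 and Ccl12 were called higher in both injected nerves and Ccl7 in the wild-type one, while the eotaxin Ccl11 was called lower in both. The level of Ccl2 was 6.74 in the injected and 4.38 in the contralateral wild-type nerve and 7.12 and 4.98 in the nude nerves. Both injected nerves lay above both contralateral nerves, and the ratios were 5.15-fold and 4.42-fold. Of all member ratios called in the nerve those of Ccl2 moved little between the alternatives, wild-type values lying from 2.20 to 2.44 and nude ones from 2.09 to 2.44. Ccl7, a close relative of Ccl2, had levels of 5.41 and 4.38 in the wild-type nerves and 5.33 and 4.79 in the nude nerves, 2.05-fold and 1.45-fold. Ccl12, another Ccr2 ligand of rodents, had levels of 2.09 and 0.86 in the wild-type nerves and 2.73 and 1.65 in the nude nerves, 2.34-fold and 2.11-fold. For both genes too the injected nerves lay above the contralateral nerves, but with normexp the Ccl12 ratios were under 2-fold (0.77 and 0.89 on the log2 scale). The level of Ccl11, or eotaxin, was 4.64 against 5.72 in wild-type and 4.72 against 6.68 in nude nerves. It was thus lower on both injected arrays, 2.10-fold and 3.90-fold, the first of which was under 2-fold with the 75th percentile, with quantile normalization and with normexp. Ccl24, a further eotaxin, differed little, with 6.79 and 7.18 in wild-type and 6.77 and 7.21 in nude nerves.

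The CC ligands Ccl3, Ccl4, Ccl5, Ccl6 and Ccl9, which draw monocytes, macrophages and activated T cells, all had positive ratios in both rat types. The level of Ccl5 was 3.02 and 1.19 in the injected and contralateral wild-type nerves and 3.99 and 2.20 in the nude nerves. The ratios of 3.56-fold and 3.45-fold were nearly equal, although both nude levels lay above the wild-type ones. Ccl9 was likewise similar between rat types, with levels of 2.36 and 0.87 in wild-type and 1.87 and 0.41 in nude nerves (2.82-fold and 2.75-fold), and under 2-fold with normexp in both (0.98 and 0.92 on the log2 scale). The level of Ccl3 was 1.85 and 0.01 in the wild-type nerves and 1.96 and 1.35 in the nude nerves. Its injected levels were close to each other, and its 3.58-fold and 1.52-fold ratios differed through the contralateral nerves. With normexp the wild-type ratio was 0.94 on the log2 scale, just under 2-fold. Ccl4 and Ccl6 stayed under 2-fold, with log2 ratios of 0.71 and 0.65 in wild-type and 0.53 and 0.62 in nude nerves.

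The ligands of receptors found on regulatory and helper T cells had the highest ratios, given as bounds, of the nude nerve, and 1 of them that of the wild-type nerve. Ccl20, the ligand of Ccr6, had a level of 3.04 in the injected wild-type nerve and 0.87 in the injected nude nerve and was not well above background on the other 10 arrays. It was at least 22.3-fold higher in the wild-type and at least 8.35-fold higher in the nude injected nerve. With normexp these Ccl20 ratios were smaller, 2.35 and 1.07 on the log2 scale. A second Ccl20 probe, with levels of 2.47 and 0.18 in the injected nerves, was also dark on every other array. Ccl1, the ligand of Ccr8, had a level of 0.99 in the injected nude nerve, at least 9.09-fold above its contralateral nerve, and was dark on the other 11 arrays, the wild-type nerves included. With normexp the Ccl1 ratio was 1.02 on the log2 scale, just past 2-fold. Ccl17, which binds Ccr4, had levels of 2.71 and 0.59 in the wild-type nerves and 1.64 and 0.31 in the nude nerves. Both injected nerves were the higher ones, 4.35-fold and 2.51-fold, the second of which was under 2-fold with normexp (0.76 on the log2 scale). Ccl22, which binds the same receptor, had levels of −0.02 and 0.08 in wild-type and 0.49 and −0.35 in nude nerves, and stayed under 2-fold in both.

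The CXCR3 ligands, which are induced by interferons and draw activated T cells, did not move alike. The level of Cxcl10 was 3.49 and 0.49 in the injected and contralateral wild-type nerves, an 8.00-fold ratio with a spot error of 0.082 on the log2 scale, which covers the duplicate spots of the same array and nothing else. In the nude nerves it was 2.05 and 1.98, a log2 ratio of 0.07. The nude levels thus lay between the wild-type ones on both sides. Cxcl9, its neighbour on the chromosome, had levels of 1.06 and −0.78 in the wild-type nerves and 1.61 and −0.04 in the nude nerves. It was higher in both injected nerves, 3.58-fold and 3.14-fold, and under 2-fold in both with normexp (0.72 and 0.79 on the log2 scale). Cxcl11 was dark on all arrays.

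The CXCR2 ligands, which draw neutrophils, were not called higher in either nerve. The level of Cxcl1 was 1.04 and 0.86 in the wild-type nerves, a log2 ratio of 0.18. In the nude rats it was 1.94 in the contralateral nerve and not well above background in the injected nerve, at least 5.89-fold lower there. The floor of that injected nude array, at −0.62, was the highest of the 12 arrays, and its median signal the lowest. The level of Cxcl2 was 1.18 and 0.31 in the wild-type nerves and dark on the other 10 arrays. Cxcr2, their receptor, was well above background in the injected wild-type nerve (−0.67) and not in the contralateral one, a bound of 0.77 on the log2 scale. Of 7 neutrophil markers on the array 2 were above background in the injected nerves, with a summed signal of 11.8 against 1.58 in wild-type and 7.49 against 1.85 in nude rats, in multiples of the array median. Their part in the Cxcr2 value was not tested.

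Of the lymphoid ligands of Ccr7, which guide lymphocytes and dendritic cells into lymph nodes, Ccl21 was called lower in the injected nude nerve, and the other values were negative but under 2-fold. The level of Ccl21 was 5.29 and 6.12 in the wild-type nerves and 3.44 and 5.29 in the nude nerves. Its 3.62-fold lower value in the injected nude nerve was past 2-fold under every alternative, and the wild-type value (1.77-fold lower) was not called. Ccl19 had levels of 1.27 and 2.10 in wild-type and 2.13 and 2.94 in nude nerves, which are log2 ratios of −0.83 and −0.81. Ccl27, a ligand of skin-homing cells, had log2 ratios of 0.07 and 0.66. Beside Ccl11 and Ccl21, the summed signal of 4 adipocyte markers on the array was lower in the injected nerves, 407 against 796 in wild-type and 322 against 618 in nude rats, in multiples of the array median. That of 5 Schwann cell myelin markers was lower too, 522 against 1331 and 466 against 1456. The part of either in these values was not tested.

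The homeostatic and membrane-bound ligands gave smaller values. Cxcl13, which draws B cells, had levels of 2.62 and 1.45 in the wild-type nerves and 3.09 and 2.04 in the nude nerves, 2.24-fold and 2.07-fold, and was under 2-fold in both with normexp (0.91 and 0.94 on the log2 scale). Of 4 B cell markers on the array 1 (Pax5) was above background in the nerves. The summed signal was 41.4 against 21.5 array medians in the wild-type nerves and 51.7 against 15.3 in the nude nerves. That sum was not particular to the nerve, and lay between 11.6 and 21.1 in DRG and between 11.6 and 12.6 in cord. The part of B cells in the Cxcl13 value was not tested. Cxcl16, a membrane-bound ligand that macrophages shed, had levels of 4.03 and 2.72 in wild-type nerves and 3.56 and 3.42 in nude nerves. The 2.49-fold wild-type ratio stood under every alternative, and the nude log2 ratio was 0.14. Cxcl12 had log2 ratios of −0.15 and −0.68, Cxcl14 of 0.32 and 0.39, and Cx3cl1, or fractalkine, of −0.12 and 0.62. The XC ligand Xcl1, a product of T and natural killer cells, had levels of 0.98 and 0.04 in the wild-type nerves and 1.52 and 0.16 in the nude nerves, log2 ratios of 0.94 and 1.36. Its 2 probes disagreed on the size. The dimmer probe, below background in the contralateral wild-type nerve, gave log2 differences of 3.05 and 1.44 without a floor. With normexp the nude ratio of the brighter probe was 0.63.

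Among the signalling receptors Cxcr4 and Ccr6 were higher in the injected nerve of both rat types. Cxcr4, the receptor of Cxcl12 on most leukocytes, had levels of 2.32 and 0.70 in the wild-type nerves and 2.16 and 0.48 in the nude nerves, 3.06-fold and 3.18-fold, and stayed past 2-fold under every alternative. Ccr6, which is found on helper T cells, B cells and dendritic cells, had a level of 0.33 in the injected wild-type nerve and was dark in the contralateral one, at least 3.38-fold. In the nude nerves it was 0.10 and −1.63, 3.32-fold. With normexp both Ccr6 ratios were under 2-fold (0.58 and 0.44 on the log2 scale). Ccr9, a receptor of gut-homing T cells, had 3.30 and 3.08 in wild-type and 3.61 and 2.56 in nude nerves, log2 ratios of 0.22 and 1.05.

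The monocyte receptors Ccr1 and Ccr2 did not follow their ligands. The level of Ccr2 was 1.20 and 0.85 in the wild-type nerves and 0.04 and 1.14 in the nude nerves, a log2 ratio of 0.35 against −1.10. The nude value has a spot error of 0.36. Ccr1 had levels of 0.61 on both wild-type nerve arrays and −0.03 and 1.03 in the nude nerves, 2.10-fold lower. The nude ratios of both receptors were under 2-fold with normexp (−0.57 and −0.47), and taken relative to the all-gene median of −0.38 they were −0.72 and −0.68. Cx3cr1, the fractalkine receptor of resident macrophages and microglia, went the other way. Its level was 6.67 and 7.24 in the wild-type nerves, a log2 ratio of −0.56, and 6.80 and 5.27 in the nude nerves, 2.89-fold higher in the injected one. The injected levels were close and the contralateral ones far apart. The remaining receptors were near background in the nerve. Ccr1l1 had a wild-type log2 ratio of 0.03, Ccr3 was above background only in the contralateral nude nerve (−0.80), and Ccr7 and Ccr10 in no nerve. Of the atypical receptors, Ackr3, which removes Cxcl12, had levels of 4.50 and 4.91 in wild-type and 4.74 and 5.66 in nude nerves, log2 ratios of −0.41 and −0.92. Ackr2, a scavenger of inflammatory CC ligands, was above background in both contralateral nerves (−0.44 and −1.18) and in neither injected nerve. Its wild-type log2 ratio was −0.58, a bound. The floor of the injected nude array, −0.62, lay above the contralateral nude levels of Ackr2 and Ccr3, so neither gene had a nude ratio.

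The ratios of both rat types can be set side by side for 33 members. The wild-type ratio was the larger for 24 of them, with a median difference of 0.18 on the log2 scale. Over all 9399 genes measured in both, the wild-type ratio was the larger in 74.9%, with a median difference of 0.35, so the members stood near the background. The widest gaps among members called in either rat type were those of Cxcl10, Cxcl1, Cx3cr1 and Ccr2.

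In the wild-type nerve 4 of 9 measured macrophage markers were at least 2-fold higher (4.68% of all genes), with a median log2 ratio of 0.92. In the nude nerve 1 of 8 was higher (7.52% of all genes), with a median of 0.22. Of 10 on the array 9 and 8 were above background in the injected and contralateral wild-type nerves and 8 in each nude nerve, with only Marco dark on every array. Their summed signal was 222 against 84.1 array medians in wild-type and 133 against 95.8 in nude rats. Of 13 T cell markers Cd3e, Cd5 and Cd28 were dark on every array. In the injected and contralateral nerves 9 and 7 were above background in wild-type and 4 and 7 in nude rats. The sum was 27.0 against 20.7 in wild-type and 27.3 against 16.1 in nude rats. At least 2-fold higher were 2 of 9 measured T cell markers in wild-type nerve (4.68% of all genes) and 2 of 6 in nude nerve (7.52% of all genes). The median log2 ratio of the measured T cell markers was 0.33 in wild-type and 0.36 in nude nerve. Skeletal muscle markers summed to 63.9 against 18.7 in the wild-type and 5.98 against 10.2 in the nude nerves. The part of these cells in the chemokine values was not tested.

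Other genes of chemokine signalling, induction and leukocyte arrest were taken from a list of 80, of which 67 were on the array. In the wild-type nerve 13 of 52 measured were at least 2-fold higher (4.68% of all genes) and 0 lower (4.08% of all genes), with a median ratio of 0.52. They included the elastase Mmp12, which trims chemokines (at least 3.03 on the log2 scale), Rgs1, which dampens receptor signalling (1.88), the heparan sulfate carrier Sdc1 (1.72), the interferon factor Irf7 (1.66), the kinase Fgr (1.58), the exchange factor Vav1 (1.38), the integrin chain Itgb2 (1.35) and the oxidase subunit Cybb (1.32). In the nude nerve 4 of 48 were higher (7.52% of all genes) and 2 lower (13.5% of all genes), with a median of −0.14, so neither count stood above the background. Those higher were Mmp12 (at least 2.50), Pik3r5, a regulator of the kinase downstream of the receptors (1.28), Sdc1 (1.25) and Rgs1 (1.13). Those lower included Gnai2, the inhibitory G protein that couples the receptors (−1.08, or under 2-fold relative to the all-gene median). Mmp12, Rgs1 and Sdc1 were thus higher in the injected nerves of both rat types.

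In the DRG, which hold the cell bodies of the sensory neurons, few members differed. In wild-type rats 2 of 33 measured members were at least 2-fold higher on the injected side (0.489% of 10831 genes) and 0 lower (0.517% of genes). In nude rats 2 of 28 were higher (0.682% of 9537 genes) and 1 lower (0.388% of genes). Among members well above background on both arrays 1 of 28 was higher in wild-type and 0 of 23 in nude DRG. All-gene shares were not counted for that subset. The median member ratio was 0.08 in wild-type and 0.02 in nude DRG, and that of all genes 0.01 and 0.02. The same 2 ligands were the higher ones in both. The share of all genes called higher in both DRG comparisons was not counted. Cxcl14, a ligand of epithelia and brain, had levels of 1.75 and 0.26 in the wild-type DRG, 2.80-fold, and 0.72 against a level below background in the nude DRG, at least 2.58-fold. Ccl17 had levels of −0.59 in the injected-side wild-type and 0.38 in the injected-side nude DRG and was dark on the contralateral side of both, at least 2.21-fold and at least 2.41-fold. With normexp all 4 of these ratios were under 2-fold, between 0.45 and 0.92 on the log2 scale. Cx3cr1 was the lower member, with 7.31 against 8.37 in nude DRG (2.07-fold lower), past 2-fold under every alternative, and 6.67 against 6.84 in wild-type DRG. Just under the threshold lay the wild-type ratio of Cx3cl1 (1.94 against 0.95, or 0.99), whose nude ratio was 0.04. Cxcl13 had log2 ratios of 0.73 and 0.83. Ccl2 had levels from 4.38 to 5.47 in the 4 DRG arrays with log2 ratios of 0.31 and 0.36, and Ccl5 was the most negative member in wild-type DRG (−0.66). In the nude DRG the summed neutrophil markers stood at 163 against 46.9 array medians and the muscle markers at 23.9 against 5.07. Their part in the nude values was not tested.

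In the dorsal cord 1 ligand, the same in both rat types, was called. The share of all genes called in both cord comparisons was not counted. In wild-type rats 1 of 28 measured members was at least 2-fold higher in the lumbar cord than above it (0.913% of 11065 genes) and 0 lower (0.831% of genes). In nude rats 1 of 24 was higher (0.776% of 10689 genes) and 0 lower (0.589% of genes). It was Ccl7, with levels of 0.36 in lumbar and −1.41 in upper wild-type cord and of −0.03 and −1.40 in the nude cords, 3.39-fold and 2.58-fold. With normexp these ratios were 0.56 and 0.36 on the log2 scale. The summed Schwann cell markers moved the same way between the 2 cord levels, 135 against 18.9 array medians in wild-type and 107 against 17.7 in nude rats, and their part in the Ccl7 value was not tested. Both arrays of a comparison come from the same rats at different cord levels, so injection and level cannot be told apart. The most negative members were Cxcr4 in wild-type (−0.80) and Cxcl10 in nude cord (−0.89), and Ccl5 had ratios of −0.53 (wild-type) and 0.78 (nude). Cxcl13 was above background only in the wild-type lumbar cord (−1.77). The median member ratio was −0.05 in wild-type and 0.11 in nude cord, and that of all genes −0.07 in both.

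**Figure D3:**
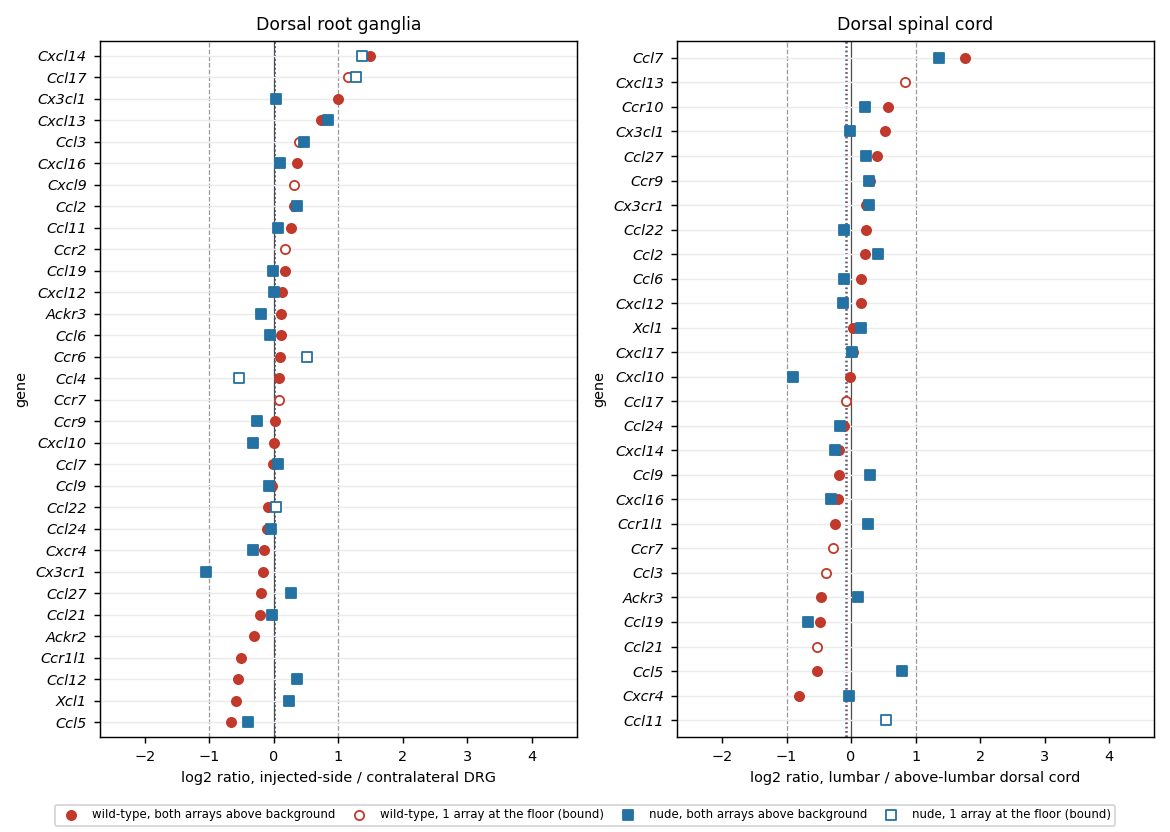
Log2 ratios of measured members in DRG (left, injected over contralateral side) and dorsal cord (right, lumbar over upper cord). Circles are wild-type and squares nude rats, open symbols are bounds, dashed lines mark 2-fold and dotted lines the median of all genes. Cxcl14 and Ccl17 lie beyond 2-fold in both DRG comparisons and Ccl7 in both cord comparisons.

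Levels were also set side by side between tissues. A member was called highest in a tissue when its 4 arrays there were well above background and lay above all 8 arrays of the other tissues. The 4 arrays differ in rat type and side and are not replicates, so this is a description. Of 30 members that could be, 11 (36.7%) were highest in nerve, where 24.4% of 8577 genes were. In DRG it was 0 of 22 (3.91% of 8883 genes) and in cord 3 of 23 (13.0%; 23.7% of 10176 genes). Since all 6 nude arrays shared a slide, these orders also hold among arrays of 1 slide.

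The nerve members included the CC ligands Ccl3, Ccl6, Ccl7, Ccl9, Ccl11 and Ccl21, the CXC ligand Cxcl12, the receptors Ccr1 and Ccr2, and Ackr3. Cxcl12 had levels of 5.50, 5.65, 5.51 and 6.19 in nerve, from 2.63 to 2.91 in DRG and from 1.24 to 1.73 in cord. Its scavenger Ackr3 had levels of 4.50, 4.91, 4.74 and 5.66 in nerve and at most 1.94 elsewhere. Both therefore lay over 2 log2 units above the other tissues in each nerve, injected or not. Ccl6 had nerve levels of 5.49, 4.84, 5.64 and 5.02 against at most 2.50 elsewhere, and Ccl7 and Ccl11 had their highest level outside the nerve in DRG, at 2.14 and 2.52. Ccr1 and Ccr2 were above background in nerve alone, except for Ccr2 in the injected-side wild-type DRG (−1.55). Ccl21 and Ccl3 passed narrowly, with the lowest nerve array 0.12 and 0.21 above the highest other array, and Ccl9 by 0.76. Ccl21 was close to background in cord, where it was detected on 1 array (−1.77).

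The cord members were Cx3cl1, Cxcl14 and Ccl27. Cx3cl1, which neurons display to Cx3cr1 on microglia, had levels of 6.11, 5.59, 6.01 and 6.03 in cord, from 0.95 to 1.94 in DRG and from 0.82 to 1.53 in nerve. Its receptor Cx3cr1 was present in all 3 tissues, from 5.99 to 6.67 in cord, from 5.27 to 7.24 in nerve and from 6.67 to 8.37 in DRG. Ligand and receptor thus had different tissue patterns. Cxcl14 had levels of 7.29, 7.47, 6.95 and 7.20 in cord, from 5.73 to 6.17 in nerve and from −0.65 to 1.75 in DRG. Ccl27 passed by 0.19 only, with 4.29, 3.89, 4.52 and 4.30 in cord and at most 3.69 elsewhere, and was not among the cord members after quantile normalization, with normexp or with the authors' normalized values. Cxcl17, a mucosal ligand, and Ccr10, the receptor of Ccl27, were above background on the 4 cord arrays alone, at levels from −1.48 to −1.29 and from −1.98 to −1.33. At the other end stood Ccl24, whose levels from 6.44 to 7.21 overlapped or nearly met across all tissues.

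**Figure D4:**
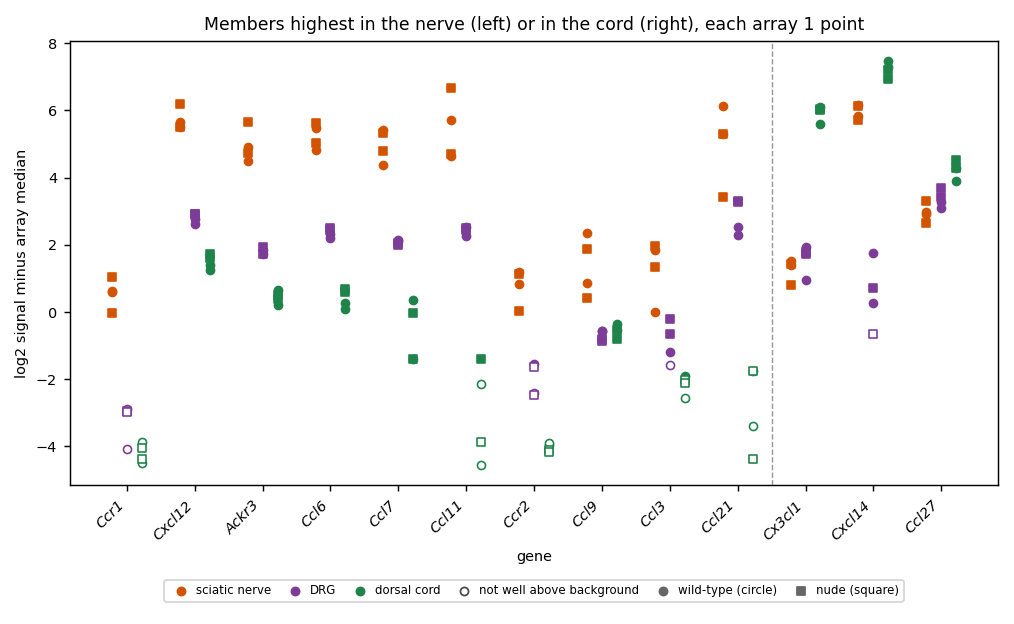
Levels of members highest in nerve (left of the dashed line) and of the 3 highest in cord (right), as log2 signal minus the array median. Each point is 1 array, coloured by tissue, with circles for wild-type and squares for nude rats, and open symbols were not well above background. Cxcl12, Ackr3, Ccl6, Ccl7 and Ccl11 stand over 2 units above every other array in nerve, and Cx3cl1 stands 3.65 units above in cord.

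Genes of the family lie in clusters, and neighbours had like nerve values in some clusters and unlike ones in others. In the order of the rat annotation, Ccl2, Ccl7, Ccl11, Ccl12 and Ccl1 form 1 group on chromosome 10. Its wild-type nerve log2 ratios ran from −1.07 for Ccl11 to 2.36 for Ccl2, and its nude ones from −1.96 for Ccl11 to at least 3.18 for Ccl1. The group of Ccl5, Ccl9, Ccl6, Ccl3 and Ccl4 on the same chromosome had positive values throughout, from 0.65 to 1.84 in wild-type and from 0.53 to 1.79 in nude nerves. Ccl17, Cx3cl1 and Ccl22 lie side by side on chromosome 19, and of these Ccl17 alone was called in the nerve.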

How the data were processed

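Total RNA of rat sciatic nerve, DRG and dorsal cord was labelled with Cy3 and hybridised to SurePrint G3 Rat GE 8x60K arrays. The deposited intensity values are spot signals that the authors extracted with Feature Extraction (10.7.3.1 in the file headers, 10.5 in the labels), background-subtracted and not normalized between arrays. Other deposited values are the authors' flags of 0 or 1 for each spot. The deposited log2 values are the authors' normalized ones, used as an alternative.

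Flagged outlier spots were left out, spots of a probe were averaged on the log2 scale, and the array median was subtracted. RefSeq accessions of the probes were matched to a GRCr8 gene table, and the brightest probe of a gene was used; 4 members had more than 1 probe. Probe sequences were not compared, so signal from close relatives in the family is possible. The members and lists were chosen with earlier results of these data known. Every member above background was described, with levels for those past 2-fold or highest in a tissue, and other genes came from the lists, at most 8 per list. Of these genes 1 member and 1 list gene are counted but not reported by name here. A gene needed 1 array above background to enter a comparison. The methods' t-test needs replicates and was not run. Precision is limited by 1 array per condition. Repeat spots of a member's probe had a median SD of 0.0768 (2 spots) or 0.0894 (more spots) on the log2 scale. The labels give pools of 3 rats and day 12 for Sprague-Dawley rats, where the paper names other group sizes, a shared day and heterozygous controls; the labels were followed. Alternatives were the 75th percentile, quantile normalization, the authors' values, both arrays above background, no filter, the mean of probes and outlier spots kept. A further one was normexp (offset 50, on median spot signals) followed by quantile normalization. The method was tested on simulated data. Python 3.11.15, numpy 2.4.6, pandas 2.3.3, matplotlib 3.10.9, R 4.3.3 and limma 3.58.1 were used.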

Additional observations from a re-analysis of the deposited data

Results flagged for a closer look

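For 3 of the members past 2-fold in at least 1 rat type, the injected nerve was higher than the contralateral one in one rat type and lower in the other. The share of all genes with such opposite signs was not counted. The all-gene median ratio was −0.05 in wild-type and −0.38 in nude nerve. The difference of the log2 ratios, wild-type minus nude, was 1.45 for Ccr2, −2.09 for Cx3cr1 and 2.74 for Cxcl1, where the nude value is a bound. With 1 array per condition these differences were not tested, and rat type cannot be told apart from strain and day.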

How the results depend on the processing

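All 42 member ratios past 2-fold kept their sign under every alternative that gave a value. Of these, 19 stayed past 2-fold throughout and 23 were below it with normexp. With normexp 8 members were higher and 0 lower in the wild-type nerve, 7 higher and 3 lower in the nude nerve, 0 higher in either DRG or either cord comparison, and 1 (Cx3cr1) was highest in DRG. With the 75th percentile 0 members were lower in wild-type and 3 in nude nerve. With quantile normalization and with the authors' values 0 were lower in the wild-type nerve and 1 (Cx3cr1) was highest in DRG. Without a filter 2 were lower in the wild-type nerve, 23 higher in the nude nerve, 3 lower in wild-type and 2 in nude DRG, 2 higher and 1 lower in wild-type cord, 3 higher and 3 lower in nude cord, and 5 highest in cord. Over genes above background on both arrays 1 was higher in wild-type DRG and 0 in nude DRG. In settings chosen after seeing the data, 3 were lower in the nude nerve relative to the all-gene median, and without the injected nude nerve array, the dimmest, 1 was highest in DRG. The all-gene median of the nude nerve was −0.38, and −0.11 with the 75th percentile. No paired analysis was possible because the counts come from no test and each comparison within a rat type is already 1 pair of arrays, from which no replicate could be left out. Low signal limits the dim members, whose ratios are bounds or shrink with normexp.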
